A study of Homo sapiens with 6 samples.

Results

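The genes described here encode proteins that fold, check and discard proteins in the endoplasmic reticulum (ER). They were taken by symbol from a list of 40 genes of ER chaperones, disulfide isomerases, stress sensors and ER-associated degradation (ERAD). The deposited table of 17280 genes holds 39 of them, and DERL3 was not analysed here. RNA was sequenced from CAL-27 cells grown as spheres, in 3 libraries titled CON and 3 titled LF3. CAL-27 is an established cell line from a human squamous carcinoma of the tongue. The CON libraries are labelled as normal controls. The titles and the series design name LF3, a small molecule that blocks beta-catenin from binding TCF4. The titles give no time, and an exposure of 24 h was taken for the LF3 libraries. The treatment field of the same libraries names elesclomol with copper for 24 h instead, so each direction below compares libraries by title, LF3 with CON. All 6 libraries come from 1 cell line, and no label says whether the replicates are separate cultures. The p-values therefore rest on the spread among these libraries alone, and that spread may be technical.

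Most proteins that a cell secretes or places in its membranes enter the ER unfolded. There HSP70 and HSP90 chaperones, lectin chaperones that read sugar chains, and isomerases that form disulfide bonds bring them to their folded shape. Proteins that fail are recognised by lectins, pulled back to the cytosol through the SEL1L and SYVN1 complex and degraded, which is ERAD. When unfolded proteins build up, the sensors IRE1 (gene ERN1), PERK (gene EIF2AK3) and ATF6 start the unfolded protein response, in which ATF6 and spliced XBP1 raise transcription of many of these genes and PERK slows translation. Many carcinoma cells carry a high load of secretory and membrane proteins and keep this response partly active.

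Values are TPM, a gene's share of all transcripts corrected for its length, scaled to the same total in each library. TPM keeps no sequencing depth, so no counting interval can be given. Means are ± SD over 3 libraries, and a log2 fold change is the LF3 mean of log2(TPM + 1) minus that of CON, ± its limma standard error. A gene is called when its Benjamini-Hochberg adjusted p, taken over the 12195 genes whose mean reached 1 TPM, is under 0.05. All 39 ER genes passed that filter.

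RNA of the ER folding and degradation genes was lower in the LF3 libraries as a whole, with a few genes that stayed level or rose. Summed over the 39 genes, it took 2.25% of all TPM in CON and 0.733% in LF3, or 22453 ± 40.0 against 7331 ± 169 TPM. Of the 39 genes 28 fell and 7 rose by limma, and 4 did not pass the threshold. Over all genes tested 85.5% were called, with 32.3% lower and 53.2% higher, so 71.8% lower among the ER genes stands beside 32.3% in the background. At least 2-fold falls were called for 18 of the ER genes, 46.2% against 11.1% of all genes tested, and at least 2-fold rises for 0 of them against 20.8%. The median log2 fold change was -0.93, while that of all genes tested was 0.24. CON and LF3 values did not overlap for 34 of the 39 genes (87.2%), close to the 86.2% of all genes tested. In bulk RNA fewer cells of a type and less RNA per cell cannot be told apart.

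The median of all genes tested moved from 0.24 to -0.0055 when libraries were rescaled by median ratios (each library divided by its median ratio to the geometric mean of the genes tested), and to 0.027 under quantile normalization. After rescaling, 3 of the ER genes were higher and 33 lower, where 42.6% of all genes tested were higher and 42.7% lower. After quantile normalization 3 were higher and 34 lower, where 43.9% and 41.4% of all genes tested were. The 3 that were higher under every scaling were DNAJB11, ATF6 and ATF6B. SDF2L1, ERP29, TXNDC11 and DERL1 were called higher as deposited only and had negative values under both other scalings. Depth is unknown, and the spread among replicates was small, with a median SD of 3.34% of the mean in CON and 3.65% in LF3.

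**Figure D1:**
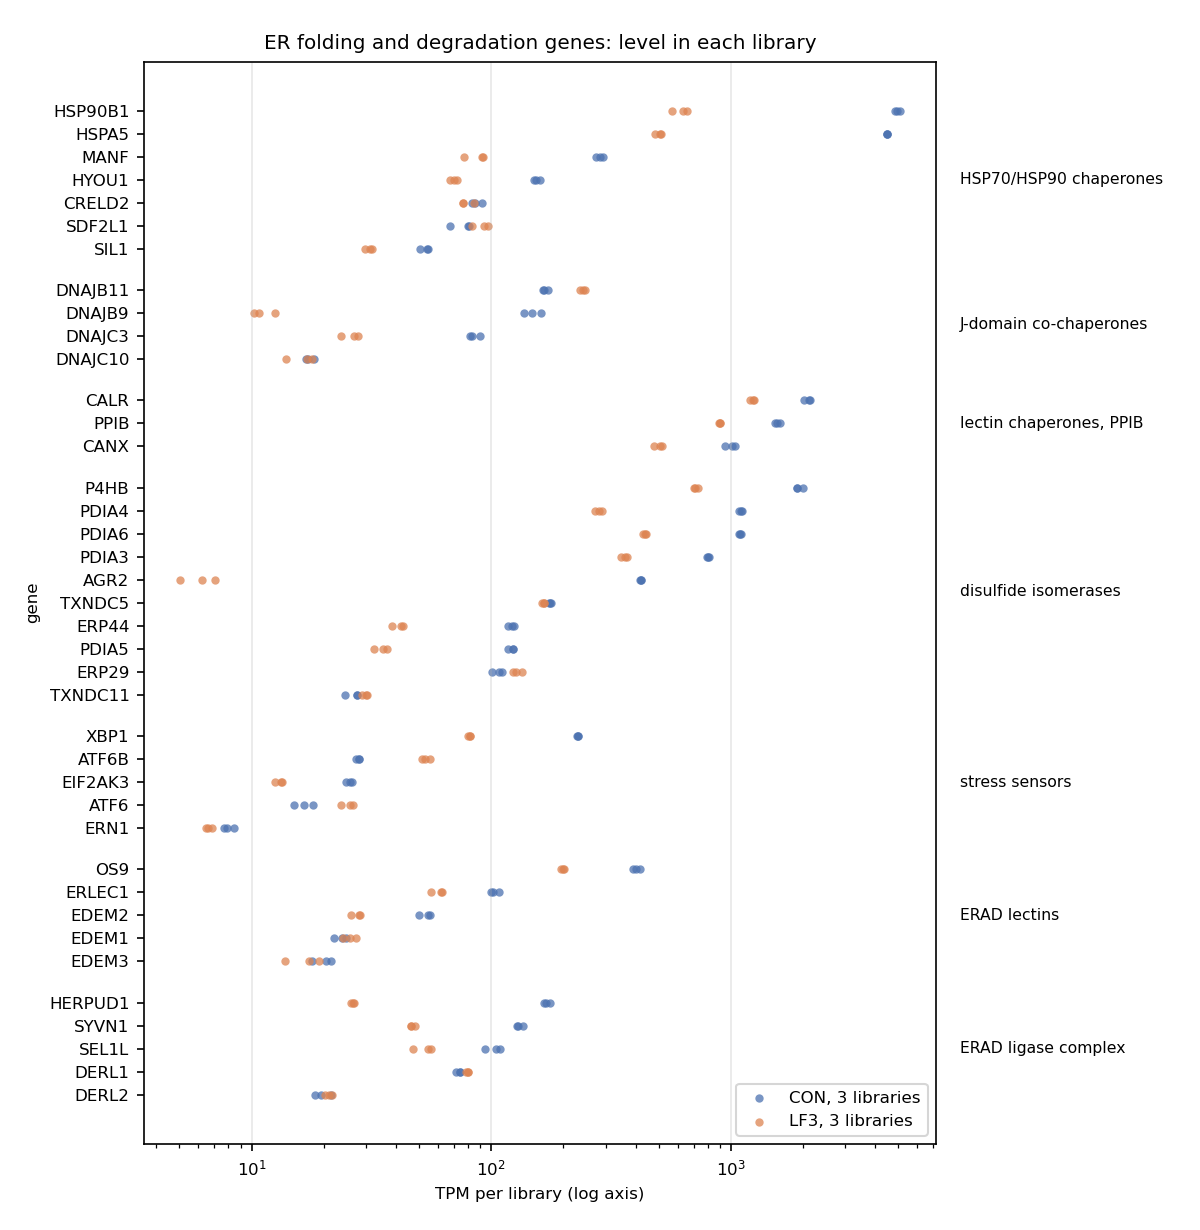
Level of each of the 39 ER genes in each library, in TPM on a log axis, with 1 point per library (blue for CON, orange for LF3), grouped by role and ordered by the CON mean. HSPA5 and HSP90B1 lie between 4494 and 5077 TPM in CON and between 484 and 658 TPM in LF3, AGR2 lies at 5.03 to 7.02 TPM in LF3, and the LF3 points of DNAJB11, ATF6 and ATF6B lie to the right of their CON points.

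Promoters are shown because genes of this group are known to share ER stress response elements. ATF6 binds the element called ERSE, together with the general factor NF-Y on its CCAAT part, and both ATF6 and XBP1 can act through ERSE-II. Sequences of 250 bases before to 50 after each gene's start were taken from RefSeq (GRCh38.p14), and 37 of the 40 genes had at least 1 such window. ERSE was searched as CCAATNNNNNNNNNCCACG and ERSE-II as ATTGGNCCACG, on both strands. ERSE was found in 0.0769% and ERSE-II in 0.0541% of all 35116 windows. Counted by gene, 44 genes held at least 1 of them, the ER genes included. A gene can have several windows, so a share of genes and a share of windows are not the same measure. Among the ER genes 10 of 37 held at least 1. ERSE was in HSPA5, HSP90B1, CALR, CANX, CRELD2, PDIA6 and XBP1, and ERSE-II in HERPUD1, HYOU1 and SDF2L1. Stretches from 7 of these genes follow on the strand of the gene, with the fixed letters of each element in capitals. HSPA5, SDF2L1, CANX, XBP1 and HERPUD1 are shown because values of every library are given for them, HSP90B1 for its abundance, and CRELD2 for an ERSE beside overlapping groups.
HSPA5 (chr9:125241371-125241429, minus strand): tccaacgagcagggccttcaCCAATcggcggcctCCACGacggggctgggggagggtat
HSP90B1 (chr12:103930196-103930359, plus strand): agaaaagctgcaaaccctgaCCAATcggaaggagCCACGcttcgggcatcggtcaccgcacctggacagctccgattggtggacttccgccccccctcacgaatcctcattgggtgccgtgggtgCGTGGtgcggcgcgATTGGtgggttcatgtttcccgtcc
HERPUD1 (chr16:56932005-56932055, plus strand): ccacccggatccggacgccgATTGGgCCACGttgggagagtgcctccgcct
XBP1 (chr22:28800583-28800641, minus strand): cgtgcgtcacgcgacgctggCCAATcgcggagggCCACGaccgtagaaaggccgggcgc
CANX (chr5:179698758-179698816, plus strand): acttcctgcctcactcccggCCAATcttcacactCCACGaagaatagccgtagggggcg
CRELD2 (chr22:49918534-49918592, plus strand): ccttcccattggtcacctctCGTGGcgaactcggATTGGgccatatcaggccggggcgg
SDF2L1 (chr22:21642094-21642144, plus strand): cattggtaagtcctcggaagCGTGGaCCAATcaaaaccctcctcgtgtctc

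The HSPA5 element starts 66 bases before the start of the gene and that of XBP1 52 bases before it. HSP90B1 holds a pair of ERSE copies, at 194 and 89 bases before the start, the nearer of them on the opposite strand. HYOU1 holds a pair of ERSE-II copies, at 185 and 79 bases. Of the 10 ER genes with an element, 9 were lower and 1 higher, with a median log2 fold change of -1.23. The 7 with ERSE were lower, and of the 3 with ERSE-II 2 were lower and 1 higher. Of the 27 tested ER genes with a window and no exact match, 18 were lower, 5 higher and 4 not called, with a median of -0.80. Over all genes tested 32.3% were lower and 53.2% higher, with a median of 0.24. Whether the elements have a part in these changes was not tested. The core of the XBP1 element UPRE, TGACGTGG, was in 0.729% of all windows and in those of DNAJC10, HYOU1, TXNDC5 and TXNDC11. Its HYOU1 copy overlaps the ERSE-II copy farther from the start. Among these 4 genes HYOU1 had -1.14, while TXNDC5, DNAJC10 and TXNDC11 had -0.087, -0.099 and 0.16. A match is a run of letters, not a measured binding site. DNAJB9 and AGR2, the largest falls among the ER genes, had no ERSE or ERSE-II in their windows.

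**Figure D2:**
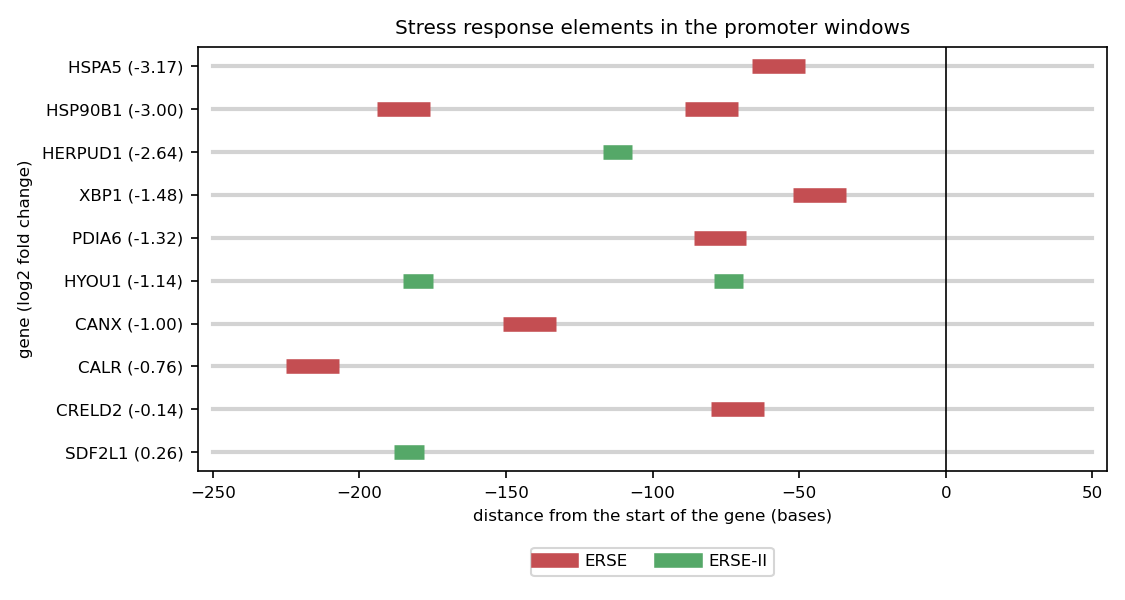
Position of ERSE (red) and ERSE-II (green) in 1 promoter window of each of the 10 ER genes that hold them (the first listed RefSeq start for CANX, whose element also lies in windows of other starts), with distance from the start of the gene in bases on the x axis and each gene's log2 fold change in brackets. Genes are ordered from HSPA5 at -3.17 to SDF2L1 at 0.26, and the elements drawn lie between 225 and 34 bases before the start.

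The main chaperones carried the largest part of the loss. HSPA5, also called BiP, is the HSP70 of the ER and holds the sensors inactive while it is free to bind them. Its level was 4498, 4494 and 4499 TPM in the CON libraries and 505, 512 and 484 TPM in the LF3 libraries, an 8.99-fold ratio of means. Every CON library was far above every LF3 library (log2 fold change -3.17 ± 0.029, limma adjusted p = 1.48e-13). HSP90B1, or GRP94, the HSP90 of the ER, folds integrins and Toll-like receptors. CON libraries had 4923, 5077 and 4823 TPM and LF3 libraries 658, 632 and 568 TPM of it, also without overlap (-3.00 ± 0.048, limma adjusted p = 2.80e-12). These 2 genes made up 42.0% of the summed TPM of the 39 ER genes in CON and 15.3% in LF3.

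Helpers of these chaperones outside the J-domain group changed less, and unevenly. MANF, a secreted ER protein that binds HSPA5, went from 284 ± 9.70 to 87.1 ± 8.73 TPM (-1.70 ± 0.065). HYOU1 and SIL1, which exchange the nucleotide on HSPA5, went from 155 ± 4.45 to 69.7 ± 2.04 TPM and from 52.9 ± 2.27 to 31.0 ± 1.01 TPM. SDF2L1, which works with the J-domain protein DNAJB11 to keep HSPA5 clients soluble, had 80.5, 67.3 and 80.4 TPM in CON and 93.4, 83.3 and 96.8 TPM in LF3. The groups did not overlap, by a narrow gap, and its rise of 0.26 ± 0.076 (limma adjusted p = 0.00797) became -0.011 after rescaling. CRELD2, another secreted stress-response protein, had overlapping values of 87.0 ± 4.24 and 79.1 ± 4.98 TPM. Its call as lower (-0.14 ± 0.055, limma adjusted p = 0.0365) was lost without CON replicate 2 or 3 and without LF3 replicate 2 or 3 (adjusted p = 0.0564 to 0.128). CRELD2 was called lower after rescaling, at -0.41, and under quantile normalization, at -0.48.

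J-domain co-chaperones, which deliver clients to HSPA5, split. DNAJB9, or ERdj4, which also holds IRE1 inactive through HSPA5, fell from 149, 162 and 137 TPM in CON to 12.6, 10.2 and 10.7 TPM in LF3, a 13.3-fold ratio. All its CON libraries lay above all LF3 libraries (-3.63 ± 0.079, limma adjusted p = 1.90e-11). DNAJC3, or p58IPK, an inhibitor of PERK, went from 84.8 ± 4.19 to 26.1 ± 2.17 TPM (-1.67 ± 0.065). DNAJB11, or ERdj3, rose from 165, 166 and 173 TPM in CON to 247, 241 and 235 TPM in LF3. The groups were again apart, now in the other direction (0.52 ± 0.036, limma adjusted p = 1.36e-07), and the rise was 0.24 after rescaling. DNAJC10, or ERdj5, which reduces disulfide bonds of ERAD clients, had overlapping groups of 17.4 ± 0.686 and 16.3 ± 2.07 TPM. It was not called as deposited (adjusted p = 0.297) and was called lower after rescaling at -0.36.

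**Figure D3:**
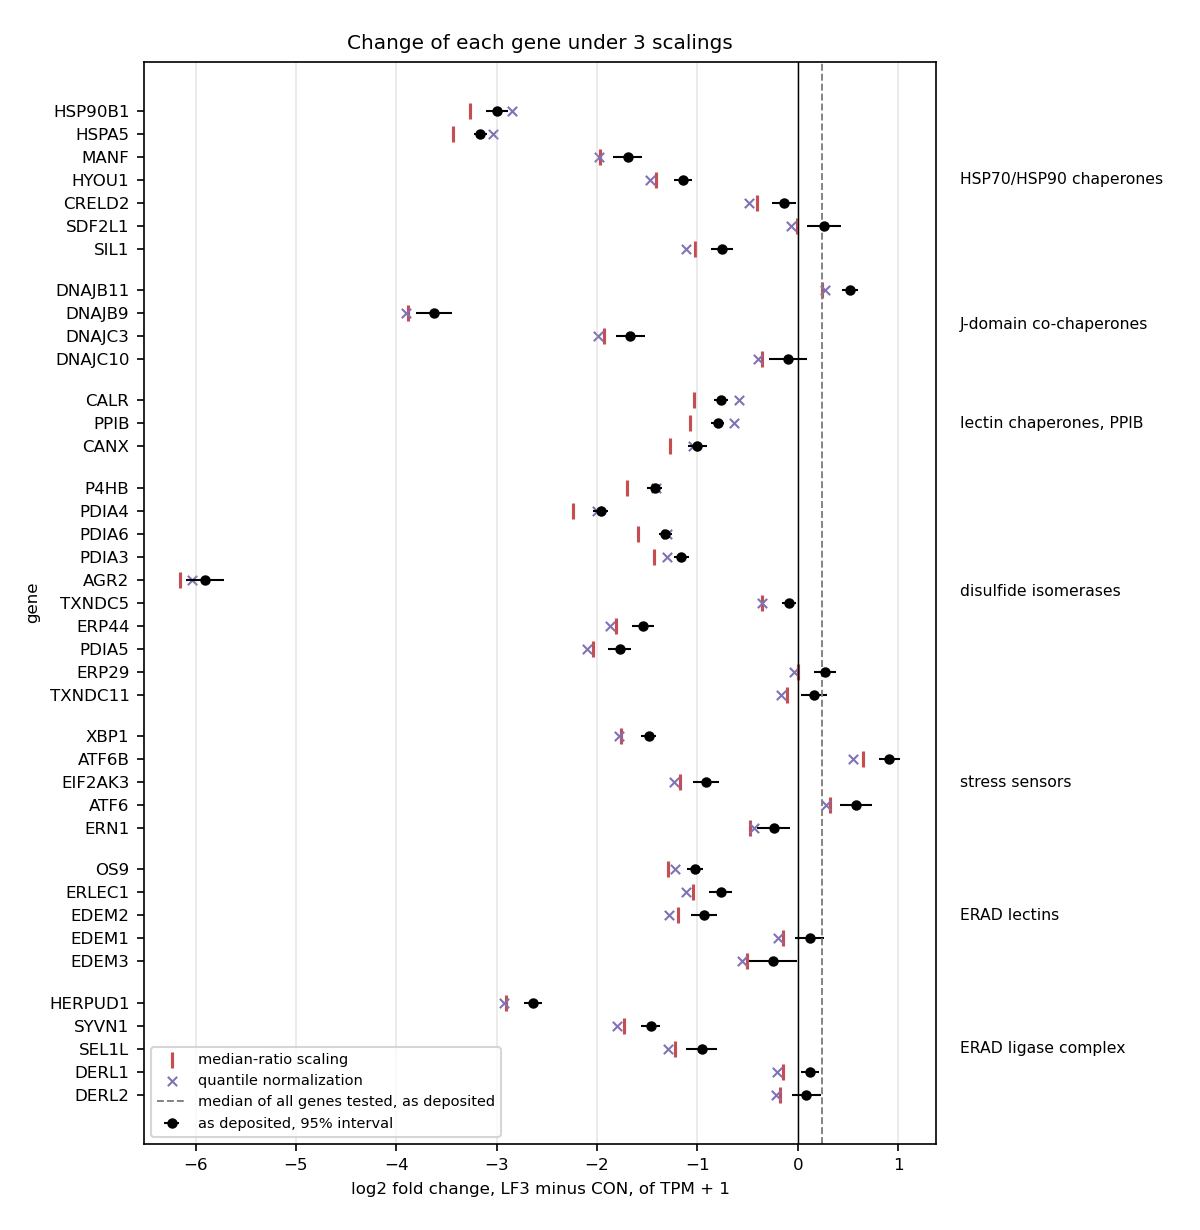
Log2 fold change of each ER gene (LF3 minus CON, TPM + 1), with black points and 95% limma intervals for the deposited values, red bars after median-ratio scaling and purple crosses after quantile normalization. The dashed line is the median of all genes tested at 0.24, and DNAJB11, ATF6 and ATF6B are the only ER genes above 0 under all 3 scalings.

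Lectin chaperones and the ER cyclophilin fell together by a smaller ratio. CALR (calreticulin) and CANX (calnexin) hold glycoproteins while they fold. CANX had 1010.0, 1037 and 948 TPM in CON and 504, 515 and 476 TPM in LF3, with no overlap (log2 fold change -1.001 ± 0.042, limma adjusted p = 1.92e-09). CALR went from 2085 ± 65.0 to 1230.3 ± 21.0 TPM (-0.76 ± 0.031). PPIB, which isomerises prolines, as in procollagen, went from 1565 ± 38.2 to 900.3 ± 4.45 TPM (-0.80 ± 0.028). CALR was thus the most abundant of the ER genes in LF3, ahead of PPIB, P4HB and HSP90B1, while HSP90B1 and HSPA5 led in CON.

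The disulfide isomerase family held the largest fall and also 2 small rises. AGR2, an isomerase of mucus-secreting cells that many adenocarcinomas express, had 419.7, 423 and 419 TPM in CON and 7.02, 6.23 and 5.03 TPM in LF3. Its lowest CON library was 59.7-fold above its highest LF3 library, and the ratio of means was 69.0 (-5.90 ± 0.085, limma adjusted p = 1.46e-12). The abundant isomerases fell by 2.24- to 3.91-fold. P4HB, the classical isomerase and a subunit of collagen prolyl hydroxylase, went from 1919 ± 64.5 to 713 ± 13.5 TPM. PDIA4 went from 1099 ± 18.4 to 281 ± 9.56 TPM, PDIA6, which also acts on IRE1, from 1094 ± 11.7 to 438 ± 7.35 TPM, and PDIA3, the partner of calnexin and calreticulin, from 803 ± 11.6 to 359 ± 9.72 TPM. Their log2 fold changes were -1.43, -1.96, -1.32 and -1.16, in that order.

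Less abundant family members differed more among themselves. PDIA5, which is known to act on ATF6, went from 121 ± 3.51 to 34.8 ± 2.15 TPM (-1.77 ± 0.052). ERP44, which retains the oxidase ERO1 and unassembled antibodies, went from 121 ± 3.45 to 41.1 ± 2.29 TPM (-1.54 ± 0.050). ERP29, an isomerase relative without the redox motif, had 110.5, 100.3 and 108 TPM in CON and 135, 127 and 124 TPM in LF3. Its groups did not overlap (0.27 ± 0.049, limma adjusted p = 3.27e-04), but the value was -0.00040 after rescaling. TXNDC11 had 0.16 ± 0.058, a call lost without CON replicate 2 and without LF3 replicate 1 or 2 (adjusted p = 0.0655 to 0.102), and -0.10 after rescaling. TXNDC5 went from 175 ± 1.74 to 165 ± 1.99 TPM (-0.087 ± 0.033, limma adjusted p = 0.0295). That call was lost without CON replicate 1 or 3 and without LF3 replicate 1, 2 or 3 (adjusted p = 0.0539 to 0.0781), and the value was -0.36 after rescaling.

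Among the sensors, the ATF6 pair rose while PERK, IRE1 and XBP1 fell. ATF6 had 15.1, 18.0 and 16.6 TPM in CON and 25.7, 26.4 and 23.7 TPM in LF3, with no overlap (0.58 ± 0.073, limma adjusted p = 1.93e-05). ATF6B, its relative with weaker activity, had 28.0, 28.0 and 27.2 TPM in CON and 55.3, 52.7 and 51.5 TPM in LF3, again with no overlap (0.91 ± 0.048, limma adjusted p = 1.25e-08). The rises were 0.32 and 0.65 after rescaling and 0.28 and 0.55 under quantile normalization. The PERK gene EIF2AK3 fell from 25.8, 26.3 and 24.8 TPM to 13.3, 13.4 and 12.5 TPM, so every LF3 library was below every CON library (-0.92 ± 0.058, limma adjusted p = 5.71e-08).

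ERN1, which encodes IRE1, had 7.87, 8.47 and 7.66 TPM in CON and 6.58, 6.83 and 6.45 TPM in LF3, a small shift without overlap (-0.24 ± 0.073, limma adjusted p = 0.00992). XBP1, whose mRNA IRE1 splices, had 227, 229 and 230.1 TPM in CON and 81.7, 81.7 and 80.0 TPM in LF3. The fall was 2.82-fold, with libraries of a group within a few TPM of each other (-1.48 ± 0.034, limma adjusted p = 2.65e-11). After rescaling, EIF2AK3, ERN1 and XBP1 had -1.18, -0.48 and -1.76. Under quantile normalization they had -1.24, -0.43 and -1.78. The table gives 1 value per gene, so spliced and unspliced XBP1 were not separated, and cleavage of ATF6 is not measured by RNA levels.

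In ERAD, the lectins that read trimmed sugar chains were lower or level. OS9, which hands glycoproteins to the SEL1L complex, had 403, 390.0 and 417 TPM in CON and 199, 201 and 195 TPM in LF3, with no overlap (-1.02 ± 0.035, limma adjusted p = 4.59e-10). ERLEC1, a related lectin, went from 103 ± 4.38 to 60.0 ± 3.31 TPM (-0.77 ± 0.052). The 3 EDEM genes, which encode mannosidase-like proteins that mark glycoproteins for degradation, differed. EDEM2 went from 53.4 ± 3.16 to 27.5 ± 1.34 TPM (-0.93 ± 0.059), whereas EDEM1 (0.12 ± 0.065, limma adjusted p = 0.111) and EDEM3 (-0.25 ± 0.11, limma adjusted p = 0.0506) had overlapping groups. EDEM3 passed without CON replicate 3 or LF3 replicate 1 (adjusted p = 0.0292 and 0.0112), and both genes were called lower after rescaling, at -0.15 and -0.51. EDEM1 was called higher without LF3 replicate 3 (0.16, adjusted p = 0.0369).

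The ligase complex fell while the derlins did not. HERPUD1, which organises the complex and is among the more responsive genes of ER stress, had 169, 175 and 166 TPM in CON and 26.6, 25.9 and 26.8 TPM in LF3. That is a 6.42-fold ratio with groups far apart (-2.64 ± 0.042, limma adjusted p = 2.51e-12). The ubiquitin ligase gene SYVN1, also called HRD1, went from 131 ± 4.04 to 46.8 ± 0.956 TPM (-1.46 ± 0.042), and its cofactor gene SEL1L from 103 ± 7.23 to 52.5 ± 4.64 TPM (-0.96 ± 0.070). DERL1, a channel-like partner in the membrane, had 71.2, 74.2 and 73.8 TPM in CON and 80.4, 80.0 and 78.7 TPM in LF3. Its groups were apart and it was called higher (0.12 ± 0.039, limma adjusted p = 0.0126). Leaving out CON replicate 1 ended that call (adjusted p = 0.0590) and turned to a call as lower after rescaling (-0.15). DERL2 overlapped between groups, at 19.8 ± 1.48 and 21.0 ± 0.755 TPM (0.086 ± 0.066, limma adjusted p = 0.237), and was called lower after rescaling (-0.17).

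Among the ER genes, the abundant ones were all lower. All 11 genes with a CON mean of at least 400 TPM fell, the smallest change being that of CALR. Of the 28 genes below that level 17 fell, 7 rose and 4 were not called. Over all genes tested, at any level, 32.3% were lower and 53.2% higher. Shares among other genes of the same level were not taken, so the pattern may not be particular to the ER genes. The 400 TPM line was set after the values were seen, and the same CON values enter the level and the change, so no test was made.

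**Figure D4:**
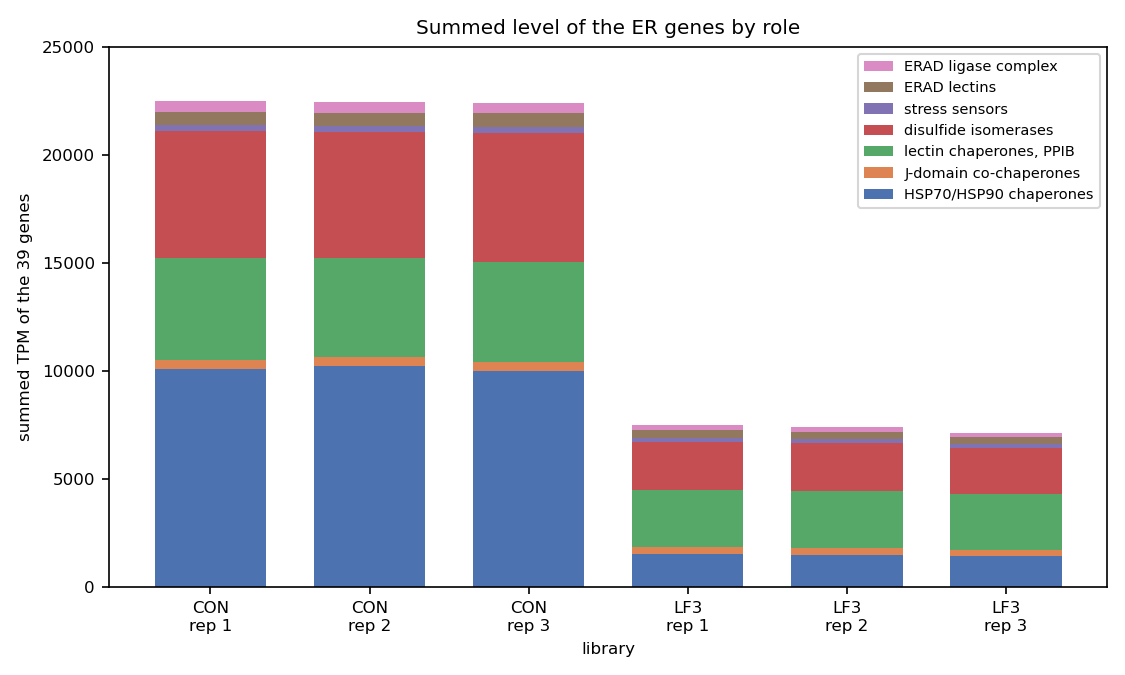
Summed TPM of the 39 ER genes in each library, stacked by role, with CON libraries on the left and LF3 libraries on the right. The chaperones of the HSP70 and HSP90 families with their helpers shrink from 10093 ± 103 to 1478 ± 58.9 TPM and the disulfide isomerases from 5886 ± 60.4 to 2196 ± 46.8 TPM.

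Other genes of the same pathway were taken from a list of 64, of which 62 were tested. Of these 36 were lower and 20 higher, or 58.1% and 32.3% beside 32.3% and 53.2% of all genes tested. Their median log2 fold change was -0.29. After rescaling 42 were lower and 16 higher, where 42.7% and 42.6% of all genes tested were. Genes for N-glycan transfer and trimming were mostly lower, 13 of 15 with 1 higher. STT3A, a catalytic subunit of oligosaccharyltransferase, went from 157 ± 4.21 to 77.1 ± 3.94 TPM and MAGT1 from 120.4 ± 5.43 to 64.0 ± 3.58 TPM. UGGT1, which re-tags misfolded glycoproteins for calnexin, had 0.17 ± 0.052, and -0.096 after rescaling. The 7 ER prolyl isomerase genes of the FKBP and cyclophilin families were called lower as deposited, led by FKBP10 at -1.52 ± 0.15 and FKBP14 at -1.21 ± 0.072, and FKBP7 lost its call under quantile normalization. FKBP10 is a low gene, at 4.43 ± 1.02 and 0.883 ± 0.285 TPM, and its value was -2.22 with a pseudocount of 0.1.

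Thiol oxidation genes moved in opposite directions. ERO1A, the oxidase that recharges P4HB and is known to be induced by low oxygen, fell from 842 ± 35.0 to 135 ± 6.83 TPM (-2.63 ± 0.045), and ERO1B from 31.8 ± 2.06 to 7.02 ± 0.698 TPM (-2.04 ± 0.079). Membrane-bound thioredoxin-like genes rose, with TMX3 at 8.32 ± 0.275 and 26.0 ± 1.81 TPM and TMX2 at 89.5 ± 2.45 and 216 ± 3.83 TPM. In this list 5 of 9 genes were higher and 3 lower, and 55.6% and 33.3% are near the 53.2% and 32.3% of all genes tested. After rescaling 4 were higher and 4 lower, where 42.6% and 42.7% of all genes tested were.

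Of 17 cytosolic and membrane ERAD factors, which extract clients from the ER, 10 were higher and 5 lower (8 and 8 after rescaling). The deposited shares of 58.8% and 29.4% are near those of all genes tested, 53.2% and 32.3%. After rescaling, 42.6% of all genes tested were higher and 42.7% lower. UFD1, a cofactor of the extraction ATPase VCP, rose from 47.7 ± 1.97 to 164 ± 5.77 TPM (1.76 ± 0.045) and the ubiquitin-conjugating enzyme gene UBE2G2 from 14.3 ± 1.20 to 50.7 ± 0.554 TPM (1.76 ± 0.063). FAM8A1, a cofactor of SYVN1 in the membrane, fell from 42.2 ± 3.49 to 13.0 ± 0.639 TPM (-1.63 ± 0.069), and NGLY1, which strips sugar chains in the cytosol, had -0.58 ± 0.052.

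Of 8 genes of the PERK branch and its outputs, 7 were lower and 1 higher, counts that stayed 7 and 1 after rescaling. These 87.5% lower stand beside 32.3% of all genes tested as deposited and 42.7% after rescaling. DDIT3, which encodes the stress factor CHOP, had 305, 308 and 313 TPM in CON and 46.4, 44.3 and 44.7 TPM in LF3, and ATF3 had 129.7, 133 and 133 TPM in CON and 16.3, 15.3 and 15.7 TPM in LF3. Both were apart between groups (-2.75 ± 0.037 and -2.98 ± 0.045). EIF2S1, the translation factor subunit that PERK phosphorylates, rose from 43.3 ± 2.17 to 109.8 ± 1.89 TPM (1.32 ± 0.047). Among genes for cleavage of membrane-held factors and for XBP1 splicing, 3 of 6 tested were higher and 1 lower. These 50.0% higher are near the 53.2% of all genes tested. After rescaling 3 were higher and 2 lower, where 42.6% and 42.7% of all genes tested were. MBTPS2, a protease that releases ATF6, went from 9.70 ± 0.177 to 18.7 ± 1.30 TPM and RTCB, the ligase that joins spliced XBP1, from 75.8 ± 1.45 to 172 ± 3.26 TPM. CREB3L2, a relative of ATF6 that drives secretory genes, fell from 55.8 ± 2.06 to 17.1 ± 1.08 TPM.

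**Figure D5:**
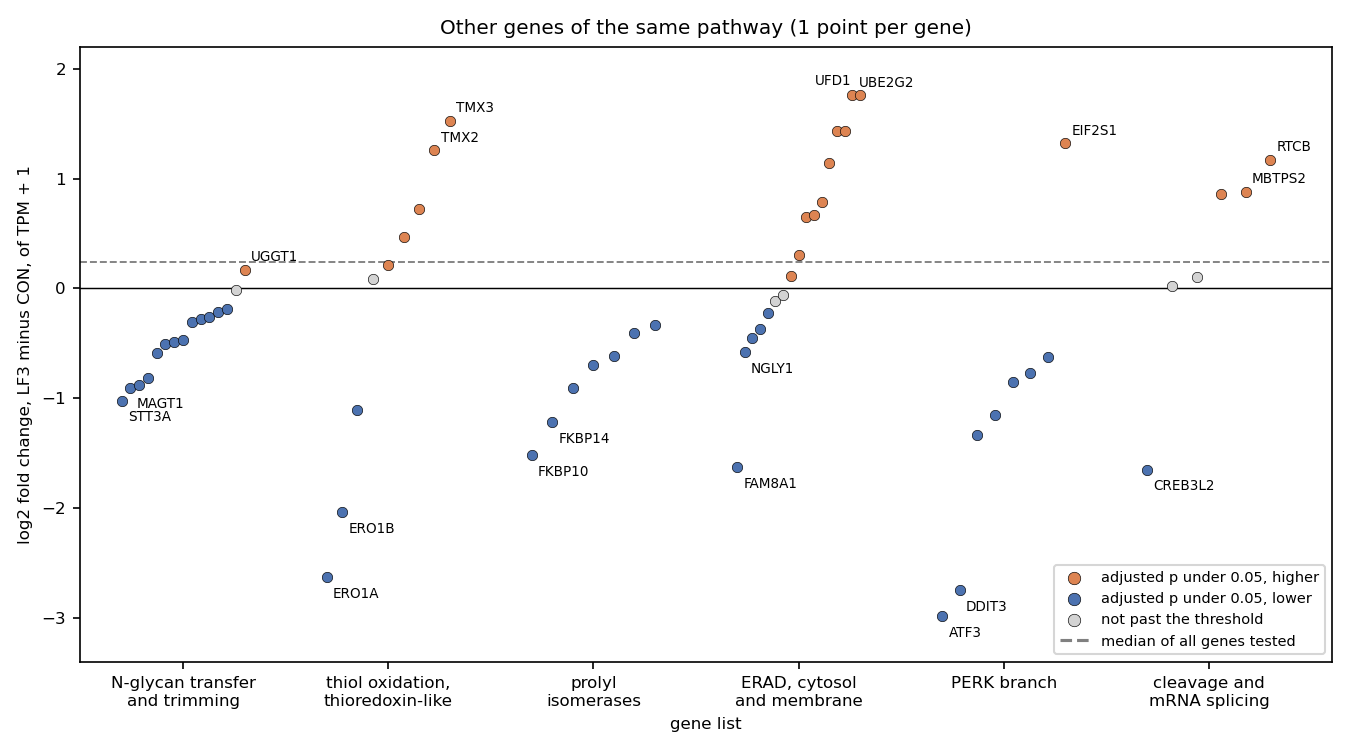
Log2 fold change (LF3 minus CON, TPM + 1) of the 62 other tested genes of the pathway, 1 point per gene, coloured by the limma call and grouped by list, with the median of all genes tested at 0.24 as a dashed line. Prolyl isomerases and most N-glycan genes lie below 0, the PERK branch reaches -2.98 at ATF3, and cytosolic ERAD genes reach 1.76 at UFD1 and UBE2G2.

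As to the cells, the squamous markers KRT5, KRT6A, KRT17, TP63, DSG3, EPCAM and CDH1 were present in every library, while KRT14 stayed at 0.290 to 0.830 TPM. The summed level of these 8 markers was 856 to 889 TPM in CON and 1085 to 1128 TPM in LF3. Within it KRT5 rose from 102 ± 3.43 to 454 ± 6.66 TPM (2.15 ± 0.036) and KRT17 fell from 192, 198 and 209 TPM to 58.0, 59.4 and 59.0 TPM (-1.75 ± 0.042). PTPRC, the pan-leukocyte marker, was at most 0.0200 TPM, and the plasma cell genes MZB1 and TNFRSF17 were at most 0.310 and 0.160 TPM. The plasma cell list summed to 149 to 157 TPM in CON and 231 to 244 TPM in LF3, mostly from SDC1, which epithelial cells also express (147 ± 4.69 and 234 ± 7.54 TPM), while PRDM1 went from 4.42 ± 0.0569 to 1.24 ± 0.230 TPM. The leukocyte list summed to 329 to 341 TPM in CON and 47.3 to 51.7 TPM in LF3. Nearly all of it came from CD68, a lysosomal protein that is not limited to leukocytes. CD14, a low gene, went from 0.693 ± 0.236 to 1.99 ± 0.302 TPM. Fibroblast markers summed to 14.8 to 15.8 TPM in CON and 6.85 to 7.69 TPM in LF3, mostly from COL1A1 (9.27 ± 0.700 and 4.31 ± 0.211 TPM). The 3 that were tested, COL1A1, LUM and PDGFRB, were called lower as deposited, where 32.3% of all genes tested were. COL3A1 was at most 0.0200 TPM. Of endothelial markers CDH5 had 0.110 TPM in each CON library and 5.70 to 6.93 TPM in LF3, with KDR at most 0.0400 TPM. The part of these shifts in the changes of the ER genes was not tested.

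The sources used here do not say how the counting treated strand. In GENCODE release 29, 13 of the 39 ER genes share 71 to 1033 exonic bases with another tested gene. They include DNAJB11 and ATF6B, which were higher under every scaling, and DNAJB9, HSP90B1, PDIA3, PDIA6, SYVN1, CRELD2 and DERL1. PDIA3, ERP29, ERLEC1 and XBP1 have pseudogenes named after them, so values of these genes may include reads of a neighbour or copy.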

How the data were processed

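Per the file's own values, the deposited table gives TPM per gene and library, computed by the authors, with 2 decimals and the same total in each library. Tools listed in the submitters' processing notes are HISAT and Bowtie2, and the build listed is GRCm38.p6, a mouse assembly, although identifiers and symbols are human. What the reads were aligned to is therefore unknown, and no coordinates of the deposited data are printed. All 39 ER genes in the table matched human RefSeq (GRCh38.p14) by identifier and symbol. Promoter windows and their coordinates are those of RefSeq, GRCh38.p14.

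LF3 was compared with CON with limma 3.58.1 in R 4.3.3 on log2(TPM + 1), a scale that understates changes of low genes, with a mean-variance trend, for genes whose mean reached 1 TPM, two-sided, with Benjamini-Hochberg adjustment over all of them. An exact permutation test of 3 against 3 libraries cannot give a p under 0.1, so none is given. Libraries were grouped by title, and replicates held the same value in 0.320 to 0.541% of the genes tested, so all 6 were kept. The genes, their roles and the list of other pathway genes were chosen with earlier results of these data known, and counts of them carry no test. Within each role, values of every library are given for the called genes with the largest rise and fall and for every sensor, and of the other pathway genes the 2 largest called rises and falls of each list are named. HSP90B1 values by library and the sequences of HSP90B1 and CRELD2 were added after their values were seen. The script for the fit was first tested on simulated data. A planned search of protein motifs was not run. Alternatives were other pseudocounts, filters, scalings, variance settings and weights, a replicate block and leaving out each library. Figures were drawn with matplotlib 3.10.9.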

Additional observations from a re-analysis of the deposited data

How the results depend on the processing

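Over 16 alternatives to the processing, 582 of 624 values of single ER genes kept their direction and their side of the threshold, and the 42 that did not belong to 10 genes. Scaling had the widest effect. The number of ER genes called higher was 7 as deposited and 3 after median-ratio scaling and after quantile normalization, and their median log2 fold change moved from -0.93 to -1.20 and -1.23. Under these 2 scalings the direction turned for SDF2L1 (-0.011 and -0.064), TXNDC11 (-0.10 and -0.17), ERP29 (-0.00040 and -0.038) and EDEM1 (-0.15 and -0.20). It also turned for DERL1 (-0.15 and -0.20) and DERL2 (-0.17 and -0.22). Outside the ER genes counted here, UGGT1 of the other pathway genes turned as well (-0.096 and -0.19). Both scalings also moved the median of all genes tested down. DNAJC10 turned to 0.0011 without LF3 replicate 3. Leaving out each library in turn gave 6 to 8 ER genes higher and 26 to 28 lower, with a median of -0.96 to -0.89. Where this left 2 libraries in a group, the spread was taken from all 5. The depth of the libraries is unknown, so small changes of low genes such as ERN1 cannot be set against a counting error.

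Replicate numbers are shared between the groups, but deviations of same-numbered libraries correlated at 0.0476, 0.106 and 0.160, so they were not taken as pairs. As a hint from the data only, 5 of the 6 libraries correlated best with their own number. With the replicate number as a block, 7 ER genes were higher and 29 lower, the added call being EDEM3 (adjusted p = 0.00814), and 6536 of all genes tested were higher and 3986 lower, against 6489 and 3938 without the block.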

Other observations

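Outside the ER genes listed here, 20 tested genes had an ERSE or ERSE-II in a RefSeq promoter window of 300 bases. Of these 11 were lower and 9 higher in LF3, where 32.3% of all genes tested were lower and 53.2% higher. Their median log2 fold change was -0.38 beside 0.24 for all genes tested. By element, 7 of 9 genes with ERSE were lower and 2 higher, with a median of -0.91. Of 11 with ERSE-II 4 were lower and 7 higher, with a median of 0.49. Both stand beside the same 32.3% lower and 53.2% higher of all genes tested. These groups are small, and a difference between the elements was not tested. The genes named here were picked after their values were seen, and the others include TRIM5, SYNPO and ZNF143, which are lower and are not known as ER genes. ERO1B, an oxidase of the isomerases, had -2.04 ± 0.079. SERP1, which stabilises membrane proteins at the translocon, went from 203 ± 4.24 to 104 ± 5.95 TPM and FICD, which modifies HSPA5 with AMP, from 5.75 ± 0.385 to 2.61 ± 0.368 TPM. NUCB1, a calcium-binding protein of the Golgi, went from 148 ± 10.5 to 65.7 ± 1.94 TPM. The higher ones included RUVBL2, an ATPase of chromatin and snoRNP complexes, at 70.1 ± 7.38 and 227 ± 10.0 TPM, and GYS1, the muscle glycogen synthase, at 23.0 ± 1.45 and 61.5 ± 1.65 TPM. ALG12, which adds mannose to N-glycan precursors and overlaps CRELD2 on the opposite strand, had 0.26 where CRELD2 had -0.14. These genes were grouped by letters in their promoters after the data had been seen, and no binding was measured.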
